A study of Mus musculus with 8 samples.

Results

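Marker-high spots are the array spots of a mouse brain section that held the most RNA of 3 genes typical of layer 5 of the isocortex, the transcription factors Fezf2 and Etv1 and the atrial light chain of myosin Myl4. In each section, the spots with at least 200 detected genes and at most 30% mitochondrial UMIs were kept, where a UMI is 1 captured RNA molecule. They were ranked by the summed UMIs of these 3 genes per 10000 UMIs of the spot, and the highest 4% became members. The rule took 853 of 21328 kept spots in 8 sections, with 111 and 114 members in PTX+GCV, 113 and 107 in those labelled PTX+ABT263, 102 and 109 in PTX and 94 and 103 in Control. Because these values chose the members, the levels of genes in them against the rest of the section are a description without a test, and the tests concern position and the 4 treatment groups.

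All mice carried the p16-3MR transgene, in which the promoter of p16 drives a fusion protein whose viral thymidine kinase turns ganciclovir (GCV) into a toxin for cells that use that promoter. PTX+GCV mice received paclitaxel (PTX, 5 mg/kg a day for 5 days, in 2 cycles 7 days apart) and then GCV (25 mg/kg), PTX+ABT263 mice received paclitaxel and then the BCL-2 family inhibitor ABT263 (1.5 mg/kg), PTX mice paclitaxel and then vehicle, and Control mice only vehicle (DMSO and saline). Both senolytics were given for 5 days in 2 cycles 2 weeks apart, and brains of male mice aged 9 to 10 months were taken 6 months after paclitaxel. Spatial transcriptomes were read from coronal sections of 10 µm on spots of 55 µm at 100 µm spacing, with 2 sections a group. Whether a group's 2 sections are from 1 mouse or from 2 is not given, so p-values measure only the spread between these sections, and a spot can hold several cells or parts of them.

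Layer 5 is the main output layer of the isocortex. Its extratelencephalic neurons send axons to brain stem and spinal cord and depend on Fezf2 for their identity, its intratelencephalic neurons project within the cortex and striatum and many of them use Etv1, and its near-projecting neurons have short local axons. Paclitaxel binds tubulin and stabilises microtubules, on which the long axons of such neurons rely, and senolytics remove cells that have entered lasting growth arrest.

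The kept spots of a section numbered 2346 to 2839, and the members of a section together held 533228 to 1606058 UMIs. The members' median depth was 4385 and 2377 UMIs in PTX+GCV, 11386 and 12445 in those labelled PTX+ABT263, 10500.5 and 10620 in PTX and 3917.5 and 8286 in Control, against 7650 to 15828.5 in the other spots of the 8 sections. Summed members of any pair of sections correlated at 0.941 to 0.970 in log2 CPM across genes, where CPM is the UMIs of a gene per 1000000 UMIs of the summed spots. In the sections labelled PTX+ABT263 the members held Xist, the noncoding RNA that silences an X chromosome in females, at 18.3 and 12.7 CPM and none of the Y-linked Ddx3y, while the other 6 sections held no Xist in the members, although every label says male. These 2 sections therefore go against a label, and each comparison of the other groups was also fitted without them.

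The score of the last spot inside ran from 4.19 to 6.35 and that of the first spot outside from 4.18 to 6.34 over the 8 sections, so no gap separated members from the next spots. Fezf2 lies at chr14:12342094-12348189 on the minus strand, Etv1 at chr12:38779380-38870484 and Myl4 at chr11:104550663-104595753 on the plus strand (GRCm38, GENCODE annotation). Etv1 gave 32.9% to 55.6% of the UMIs that entered the score, Myl4 28.4% to 55.4% and Fezf2 11.3% to 20.9%. All 3 genes were detected in 17.0% to 42.2% of the members of a section, and 29.9% to 58.8% of members had only 1 of them. Etv1 had a UMI in 84.5% to 94.6% of members, so a member without Etv1 was the exception in every section.

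**Figure D1:**
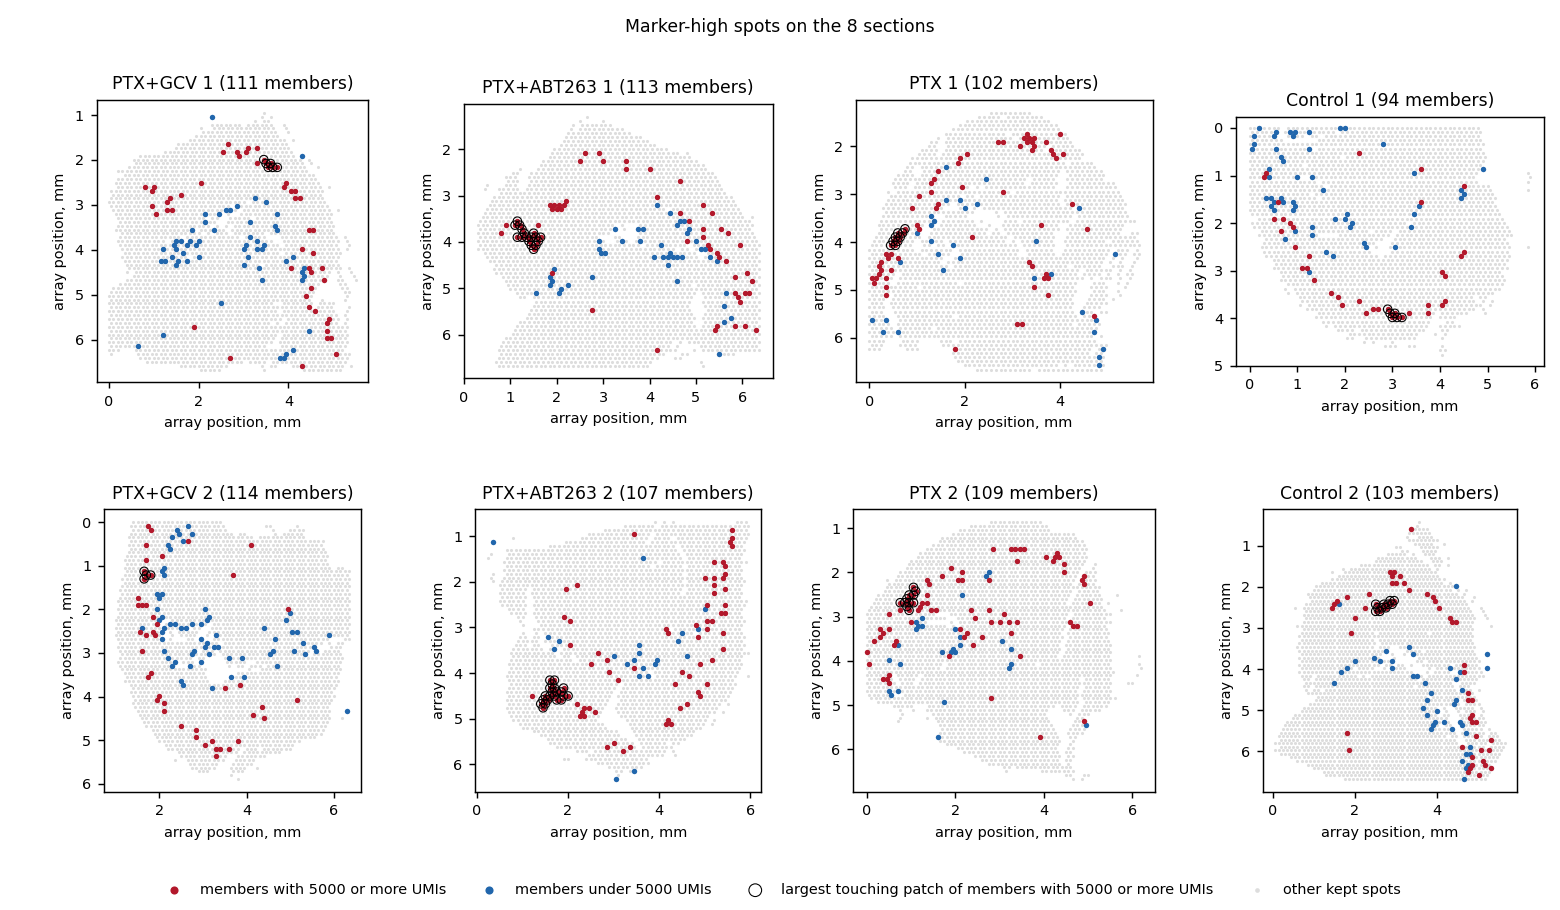
Position of the marker-high spots on the 8 sections, with both axes as array position in mm, members with 5000 or more UMIs in red, members under 5000 UMIs in blue, the largest touching patch of the deeper members circled and other kept spots in grey. The median distance to the nearest position without tissue was smaller in the shallower than in the deeper members in 6 of 8 sections.

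Members clumped on the array and lay farther from the tissue edge than upper layer spots, but not than other spots in general. Of the neighbours of a member, 10.8% to 19.1% were members themselves, against 3.30% to 3.67% of the neighbours of other spots, and 46.7% to 62.4% of the members of a section touched another one. Touching spots can share tissue and free RNA, so they are not separate observations. Distance to the tissue edge, the distance from a spot to the nearest array position without tissue, was then set against that of 816 upper layer spots (the highest 4% by Lamp5, Cux2 and Rasgrf2) and 816 layer 6 spots (by Rprm, Syt6 and Hs3st4). Section medians averaged 0.539 ± 0.106 mm in marker-high spots and 0.251 ± 0.0502 mm in upper layer spots (SD, n = 8 sections). The difference of 0.288 ± 0.0613 mm pointed the same way in 8 of 8 sections, with an exact two-sided permutation p of 0.0078125, the smallest that 8 sections allow. All other kept spots had section medians of 0.300 to 0.700 mm, against 0.380 to 0.700 mm in marker-high spots. These ranges are similar, so the test sets upper layer spots apart and does not place the members in layer 5. Layer 6 spots averaged 0.551 ± 0.147 mm, and the difference of -0.0124 ± 0.0923 mm was smaller than its spread, with marker-high spots farther from the edge in 3 sections, nearer in 4 and equal in 1 (exact two-sided permutation p = 0.719). Its sign turned under other choices of members, and openings inside the tissue counted as edge too. Members under 5000 UMIs had section medians of 0.300 to 0.688 mm and those with 5000 or more UMIs of 0.361 to 0.781 mm, with the shallower ones nearer to an edge in 6 of 8 sections.

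**Figure D2:**
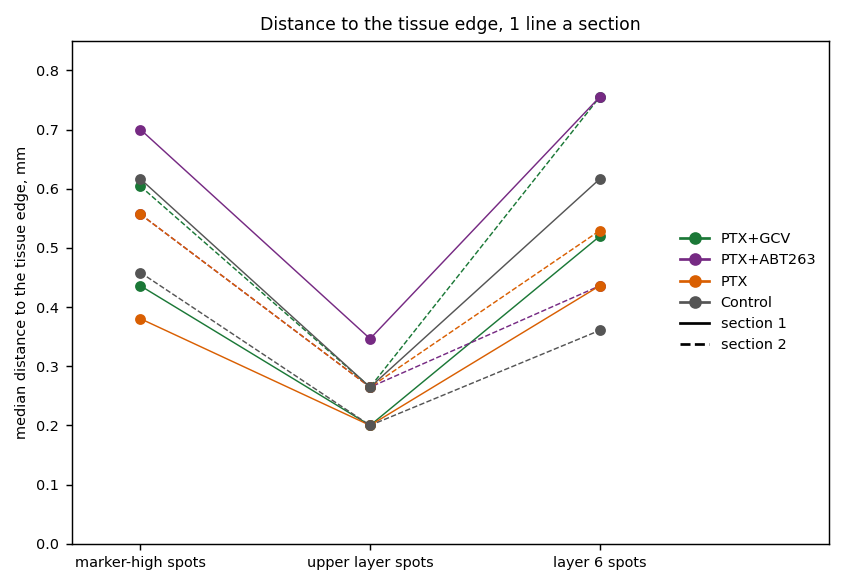
Median distance to the tissue edge in mm of marker-high, upper layer and layer 6 spots, with 1 line per section, colours for the groups and dashes for section 2. Every line falls from the marker-high spots to the upper layer spots, while layer 6 spots lie on both sides of the marker-high ones.

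Beyond the 3 genes of the rule, the gene with the highest level over the rest was Kcng1, and myelin genes were raised as a list. Of 3714 genes with at least 50 CPM in members or rest, 10 had a median log2 ratio of members over rest of 1 or more, and 34 had one of -1 or less. In all, 479 genes were higher and 273 lower in 8 of 8 sections, which makes 12.9% of these genes consistently higher in a set that was itself chosen by expression. Kcng1, a modulatory potassium channel subunit, had 24.9, 51.9 and 76.6 CPM (lowest, median and highest section) in members, against 14.3, 16.0 and 23.0 CPM in the rest. Its log2 ratio had a median of 1.65 and was above 0 in 8 sections. Kcng1 was also low in upper layer spots, with a median of 6.21 CPM, and in layer 6 spots, with 16.5 CPM.

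Several of the next genes had higher medians in members than in upper layer spots as well. Ldb2, a LIM-domain binding cofactor found in extratelencephalic neurons, had 45.0, 68.0 and 74.5 CPM in members, against 24.6, 28.2 and 33.4 CPM in the rest (median log2 ratio 1.25). Upper layer spots had a median of 30.4 CPM of Ldb2, and their highest section, at 48.6 CPM, was above the members' lowest. Slc5a5, the sodium-iodide symporter of the thyroid, had 61.5, 68.6 and 91.9 CPM in members, against 26.3, 32.9 and 39.7 CPM in the rest, and medians of 11.6 CPM in upper layer and 31.4 CPM in layer 6 spots. The members' lowest section thus exceeded the highest section of the rest for both genes. Dkkl1, Sulf2, an extracellular sulfatase of heparan sulfate, Parm1 and Cnih3, an auxiliary subunit of AMPA receptors, were also higher than in layer 6, with medians of 55.5, 87.3, 74.4 and 95.8 CPM in members, against 20.9, 46.8, 28.3 and 41.7 CPM in layer 6 spots. For Parm1 the members' lowest section, at 43.1 CPM, was below the highest section of the rest, at 46.4 CPM.

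Other leading genes were shared with layer 6. Hs3st2, a heparan sulfate sulfotransferase, had a median of 78.7 CPM in members and 73.1 CPM in layer 6 spots, against 31.0 CPM in the rest. Trbc2, annotated as a T cell receptor constant region, had a median of 51.6 CPM in members and 62.0 CPM in layer 6 spots, against 17.1 CPM in the rest, and the medians of Vxn and Pde1a, a calcium-dependent phosphodiesterase, were 319.7 and 187 CPM in members, close to 355 and 177 CPM in layer 6 spots. Garnl3 had medians of 64.6 CPM in members and 71.3 CPM in layer 6 spots. Doc2a, Satb1, Dpy19l1, Jcad, Igfbp4 and Egr4 were also among the leading genes, with median log2 ratios of 1.07, 0.94, 0.93, 0.87, 0.84 and 0.81. The last of the 20, Opalin, belongs to myelin.

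**Figure D3:**
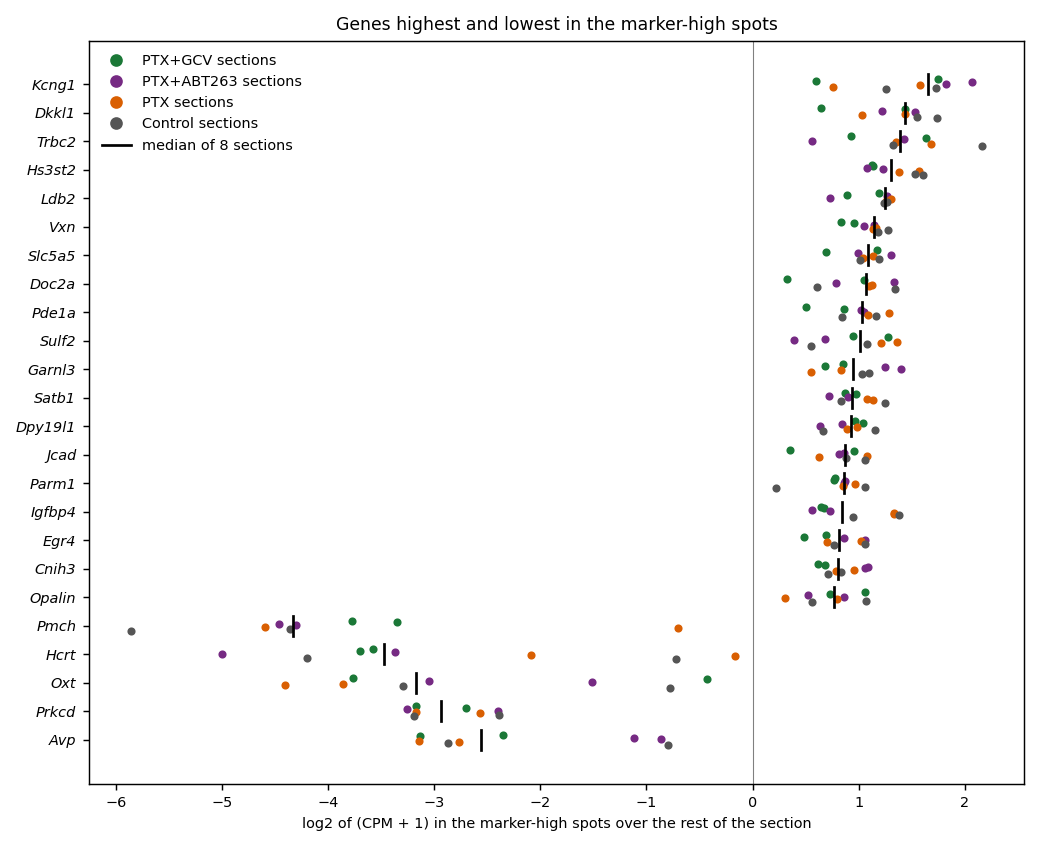
Log2 of CPM + 1 in marker-high spots over the rest of the same section, for 19 of the 20 genes with the highest and the 5 with the lowest median among genes with at least 50 CPM, with 1 point per section and a bar at the median. All 8 sections lie above 0 for the 19 upper genes and below 0 for the 5 lower ones, and the points of the 4 groups are mixed.

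The lowest genes came from the diencephalon. Pmch, the precursor of melanin-concentrating hormone, Hcrt, the orexin precursor, Oxt, oxytocin, Avp, vasopressin, and Prkcd, a protein kinase C abundant in thalamus, had median log2 ratios of -4.33, -3.47, -3.17, -2.56 and -2.93. Summed over the list, striatal genes had a median of 166 CPM in members, against 539 CPM in the rest, thalamic genes 154 against 599 CPM and hypothalamic genes 67.3 against 924 CPM, each lower in 8 of 8 sections. Hippocampal genes were lower in 8 of 8 sections too, with 82.4 CPM in members, against 154 CPM in the rest.

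The label of layer 5 held in part when 31 further layer 5 genes outside the rule were examined. Of the 21 with at least 10 CPM, 17 had a median log2 ratio above 0 and 10 were higher in 8 of 8 sections. Of all 3714 genes with at least 50 CPM, 59.0% had a median above 0 and 12.9% were higher in 8 of 8 sections. The intratelencephalic and general list, led by Rbp4, a retinol carrier, and Parm1, summed to a median of 240 CPM in members, against 164 CPM in the rest, and the near-projecting list, led by Lypd1, which modulates nicotinic receptors, to 152 against 91.1 CPM, each higher in 8 of 8 sections. Layer 6 spots had 144 and 131 CPM of these 2 lists, and members were above them in 8 and 5 of 8 sections. Lypd1 itself was lower in members than in the rest in PTX section 1, at 49.2 against 56.8 CPM. In Control section 2 the largest touching patch of deeper members held 76.7% of the members' Lypd1 UMIs. Rbp4 had 19.2, 32.9 and 41.0 CPM in members, against 10.8, 15.3 and 20.5 CPM in the rest. The extratelencephalic list was less distinct, at 2248 CPM in members, against 2187 CPM in the rest and higher in 6 of 8 sections. That sum is mostly Pcp4, a calmodulin-binding peptide, which had a median of 1616 CPM in members, against 1715 CPM in the rest and was higher in 4 of 8 sections. Crym, a thyroid hormone binding protein, S100a10, Pou3f1, Bcl6, Lratd2 and Igfbp4 of that list were higher in 8 of 8 sections, while Vat1l was lower in 7 and Whrn, of the intratelencephalic and general list, in 8. Bcl11b, a defining factor of extratelencephalic neurons, had 46.6 CPM in members, against 41.0 CPM in the rest (medians) and was higher in 6 sections.

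Lists of other layers and regions differed in direction. Upper layer genes summed to a median of 417 CPM in members, 599 CPM in the rest and 1758 CPM in upper layer spots, and were lower than the rest in 8 of 8 sections. Layer 4 genes, at 35.7 CPM in members and 57.4 CPM in the rest, were also lower in 8 of 8 sections. Layer 6 genes had 194 CPM in members and 186 CPM in the rest, far from the 739 CPM of layer 6 spots. General excitatory neuron genes such as Slc17a7 and Camk2a had 3558 CPM in members, above 2935 CPM in the rest but below 6445 CPM in upper layer spots, and below 4169 CPM in layer 6 spots in 8 of 8 sections. Amygdala and piriform genes, at 90.7 CPM in members and 66.2 CPM in the rest, were higher in 6 of 8 sections. Oligodendrocyte and myelin genes had 8494 CPM in members and 6024 CPM in the rest and were higher in 8 of 8.

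Members differed among themselves with depth. Those under 5000 UMIs numbered 58 and 68 in PTX+GCV, 45 and 22 in those labelled PTX+ABT263, 31 and 28 in PTX and 55 and 44 in Control, which is 20.6% to 59.6% of members, against 6.82% to 30.4% of other spots. A shallow spot entered with few molecules, since the median number of rule UMIs was 1 to 2.5 in shallow members and 8 to 13 in deep ones. Shallow members carried a median of 42515 CPM of oligodendrocyte and myelin genes, against 4739 CPM in deep members and 6024 CPM in the rest, and shallow exceeded deep in 8 of 8 sections. Excitatory neuron genes showed the reverse order, with 1243 CPM in shallow and 3878 CPM in deep members. Microglial genes, at 1523 and 597 CPM, and meningeal and fibroblast genes, at 2565 and 488 CPM, were also higher in shallow than in deep members in 8 of 8 sections, and choroid plexus genes, at 3489 and 621 CPM, in 7.

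Single genes differed with depth in both directions. Opalin had a median of 378 CPM in shallow members and 41.8 CPM in deep ones, and its median log2 ratio over the rest turned to -0.12 when members were chosen among spots with at least 5000 UMIs. Etv1 was the rule gene that shallow members mostly held, at 723 CPM, against 300 CPM in deep members, whereas Myl4 was lower in shallow members, at 129 against 288 CPM. Kcng1, Ldb2, Hs3st2 and Doc2a had medians of 4.88, 13.3, 23.1 and 7.30 CPM in shallow members, against 57.0, 71.8, 85.5 and 82.3 CPM in deep ones. Sulf2 and Pou3f1 were higher in shallow members, at 101 and 58.7 CPM, against 79.999 and 34.2 CPM in deep ones, and Dpy19l1 had 125 CPM in shallow and 138 CPM in deep members. In deep members the intratelencephalic and general layer 5 list had 246 CPM, against 164 CPM in the rest, but the extratelencephalic list had 2436 against 2187 CPM, and amygdala and piriform genes were raised too, at 106 against 66.2 CPM. The layer 5 label was thus borne out only in part in the deep members as well. The split at 5000 UMIs was described after these levels were seen, and no cell type name was given to either part.

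**Figure D4:**
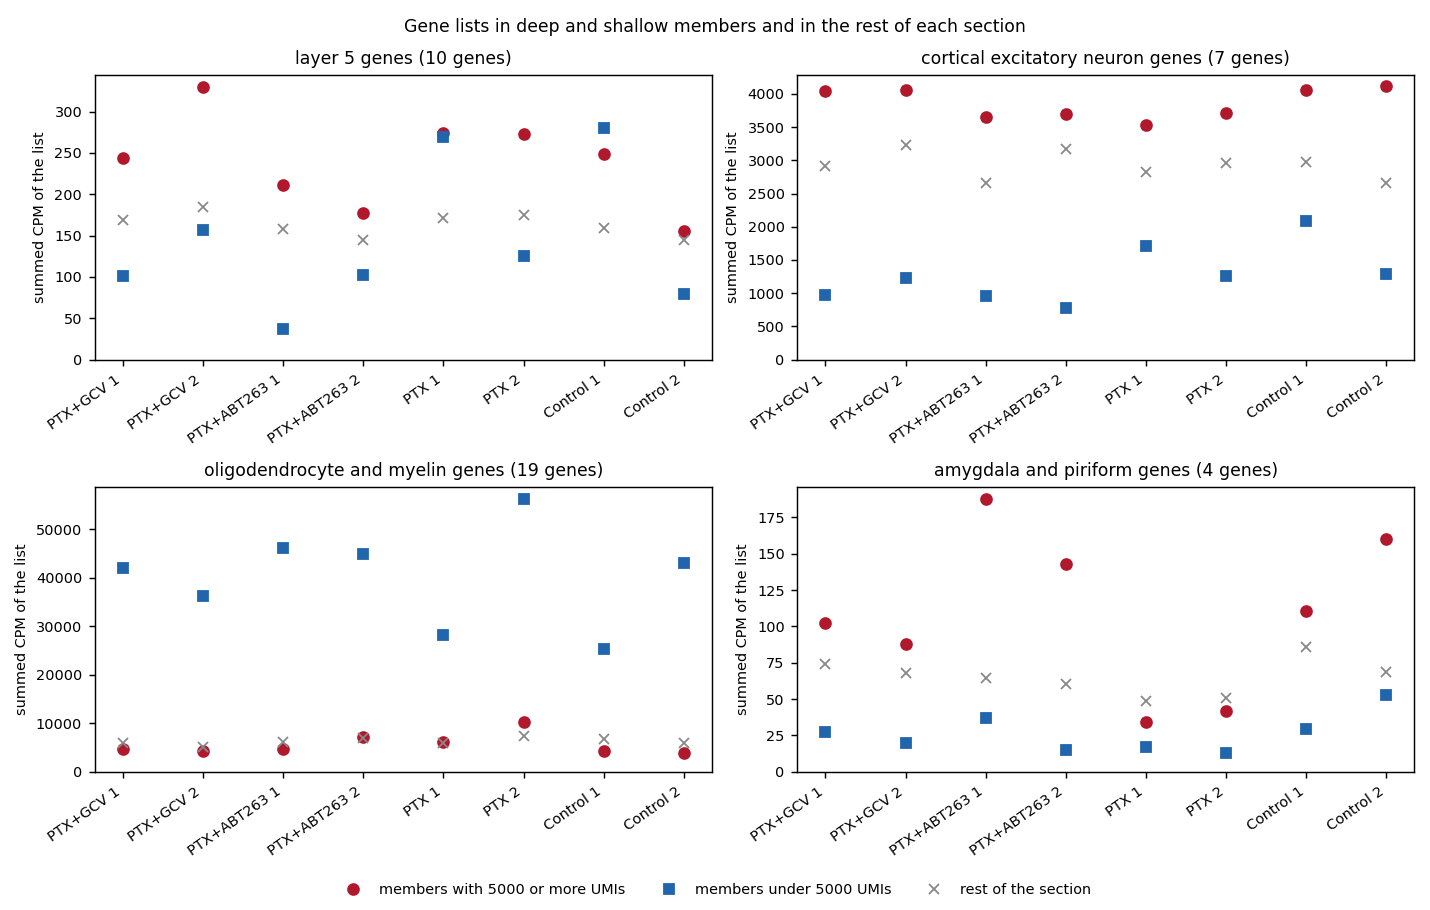
Summed CPM of 4 gene lists by section, with deep members (5000 or more UMIs) as red circles, shallow members as blue squares and the rest of the section as grey crosses. Myelin genes are at 25354 CPM or more in every set of shallow members and at 10317 CPM or less in every set of deep ones, excitatory neuron genes show the opposite order, and amygdala and piriform genes are low in deep members of both PTX sections.

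The largest clumps of deep members differed between sections. The largest touching patch of a section held 6 and 4 spots in PTX+GCV, 17 and 21 in those labelled PTX+ABT263, 9 and 11 in PTX and 6 and 11 in Control. In the patches of both sections labelled PTX+ABT263 and of Control section 2, Nr2f2, the nuclear receptor COUP-TFII, reached 185, 203 and 181 CPM, against 0 to 24.4 CPM in the other 5 patches. Amygdala and piriform genes (Rspo2, Cyp26b1, Tfap2d and Nr2f2) summed to 351, 384 and 438 CPM in those 3 patches and to 4.67 to 35.3 CPM in the other 5. Most of these 3 sums came from Nr2f2, which singled out the patches, and Cyp26b1, at 145, 138 and 244 CPM. Rspo2 did not follow in each, at 20.3, 43.0 and 9.04 CPM, against 19.3, 8.51 and 17.4 CPM in the deep members outside the patch. These 3 patches supplied 61.0%, 75.9% and 59.7% of the Nr2f2 UMIs of their section's members. Patches were chosen after the maps were seen, and whether members of different sections cover different regions was not tested. For the 2 sections labelled PTX+ABT263, region, sex and treatment cannot be told apart.

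Between PTX and Control, the smallest adjusted p belonged to Ttr, which was higher in PTX, followed by Hpcal1, Stum and Nr2f2, which were lower. Of 10528 genes tested on summed members with edgeR's quasi-likelihood test, 45 passed a Benjamini-Hochberg adjusted p of 0.05 (0.427%), 9 higher in PTX (0.0855%) and 36 lower (0.342%), and 913 had an unadjusted p under 0.05. The median log2 fold change over all genes was 0.00. Members under 5000 UMIs made up 30.4% and 25.7% of PTX members, against 58.5% and 42.7% of Control members, and their part in these differences was not tested. In sums of this kind, fewer cells of a type and less RNA per cell cannot be told apart. The count was 23 without Control section 2, 27 without PTX section 2 and 73 without PTX section 1, and 123 genes passed when members were chosen among spots with at least 5000 UMIs, 44 of them among the 45.

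Ttr, the thyroid hormone carrier made by the choroid plexus, had 1736 and 2688 CPM in PTX members, against 353 and 453 CPM in Control members. Both PTX sections were above both Control sections (log2 fold change 2.45 ± 0.177 SE, adjusted p = 8.52e-12). In the rest of the sections Ttr had 2093 and 2849 CPM in PTX and 2759 and 2300 CPM in Control, so the groups overlapped there. Summed choroid plexus genes had 2007 and 3157 CPM in PTX members, against 563 and 667 CPM in Control members. Of the 4 tested genes of this list 2 were higher, Ttr and Enpp2, where 0.427% of all genes tested passed. Enpp2 encodes autotaxin and is also used by oligodendrocytes, and its call was lost in 6 of 18 other settings, DESeq2 among them. In the largest patches summed choroid plexus genes had 5438 and 8419 CPM in PTX, against 123 and 167 CPM in Control, and their part in other differences was not tested.

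Pvalb, the parvalbumin of fast-spiking interneurons, had 337 and 294 CPM in PTX members, against 173 and 154 CPM in Control members (log2 fold change 0.97 ± 0.170 SE, adjusted p = 0.00145), with no overlap. In the rest of the sections Pvalb had 290.4 and 329 CPM in PTX, against 220.3 and 203 CPM in Control. It was the 1 of 13 interneuron genes tested that passed, where 0.427% of all genes tested passed. Its call was lost in 2 of 18 other settings, among them the highest 2% of spots. The haemoglobin genes Hba-a1 and Hba-a2 were higher too, but neither passed with DESeq2, with touching members or without either Control section or PTX section 2. Hba-a1 had 77.1 and 81.4 CPM in the rest of the PTX sections, against 25.4 and 12.6 CPM in the rest of the Control sections. Also higher were Slc24a2, a sodium-calcium exchanger of neurons, H2-D1, an MHC class I heavy chain, and Apod, a lipocalin of oligodendrocytes. H2-D1 had 51.1 and 78.6 CPM in PTX members, against 16.9 and 31.6 CPM in Control members (adjusted p = 0.0184). The other 6 tested interferon and MHC class I genes did not pass, although all 7 had a log2 fold change above 0. Of 18 other settings, H2-D1 lost its call in 6, Apod in 7 and Slc24a2 in 5, DESeq2 among them for each. Avp had 36.1 and 36.3 CPM in PTX members, against 18.8 and 0.958 CPM in Control members. It had 327 and 253 CPM in the rest of the PTX sections, against 144 and 2.40 CPM in the rest of the Control sections. The call of Avp was lost in 5 of 18 other settings, DESeq2 among them.

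Of the 36 genes that were lower, Hpcal1, a neuronal calcium sensor, had 43.0 and 38.5 CPM in PTX members, against 113 and 169 CPM in Control members (log2 fold change -1.83 ± 0.209 SE, adjusted p = 1.28e-06). Nr2f2 had 4.98 and 13.6 CPM in PTX members, against 45.0 and 64.2 CPM in Control members (log2 fold change -2.66 ± 0.355 SE, adjusted p = 2.27e-05). The PTX sections were below both Control sections for each gene, in the rest of the sections too, where Hpcal1 had 70.5 and 68.1 CPM in PTX, against 95.8 and 134 CPM in Control, and Nr2f2 34.5 and 35.5 CPM in PTX, against 64.4 and 52.2 CPM in Control. Stum, Hpcal4 and Nptxr, the receptor of neuronal pentraxins, had log2 fold changes of -1.22, -0.92 and -1.07, and Cyp26b1, which breaks down retinoic acid, Lypd1, the copine Cpne6 and the synapsin Syn2 had -2.27, -2.21, -1.17 and -0.86. Of these, Cyp26b1, Lypd1, Nptxr, Cpne6 and Syn2 no longer passed without Control section 2, a fit that leaves Control without a replicate. The part of that section's patch in this was not tested. Hpcal1, Hpcal4, Nr2f2, Stum and Ttr passed in every other setting tried.

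Values outside the largest patch were also read. Deep members outside the largest patch had 48.5 and 44.7 CPM of Hpcal1 in PTX, against 155 and 135 CPM in Control, and the corresponding values of Nr2f2 were 5.11 and 15.5 CPM in PTX, against 55.7 and 30.8 CPM in Control. Amygdala and piriform genes in these spots summed to 40.9 and 49.5 CPM in PTX, against 123 and 77.7 CPM in Control. These values were compared without a test. Lars2, the mitochondrial leucyl-tRNA synthetase, had 88.4 and 122 CPM in PTX members, against 1056 and 193 CPM in Control members, and 87.0 and 118 CPM in the rest of the PTX sections, against 718 and 223 CPM in the rest of the Control sections, and it did not pass without Control section 1.

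**Figure D5:**
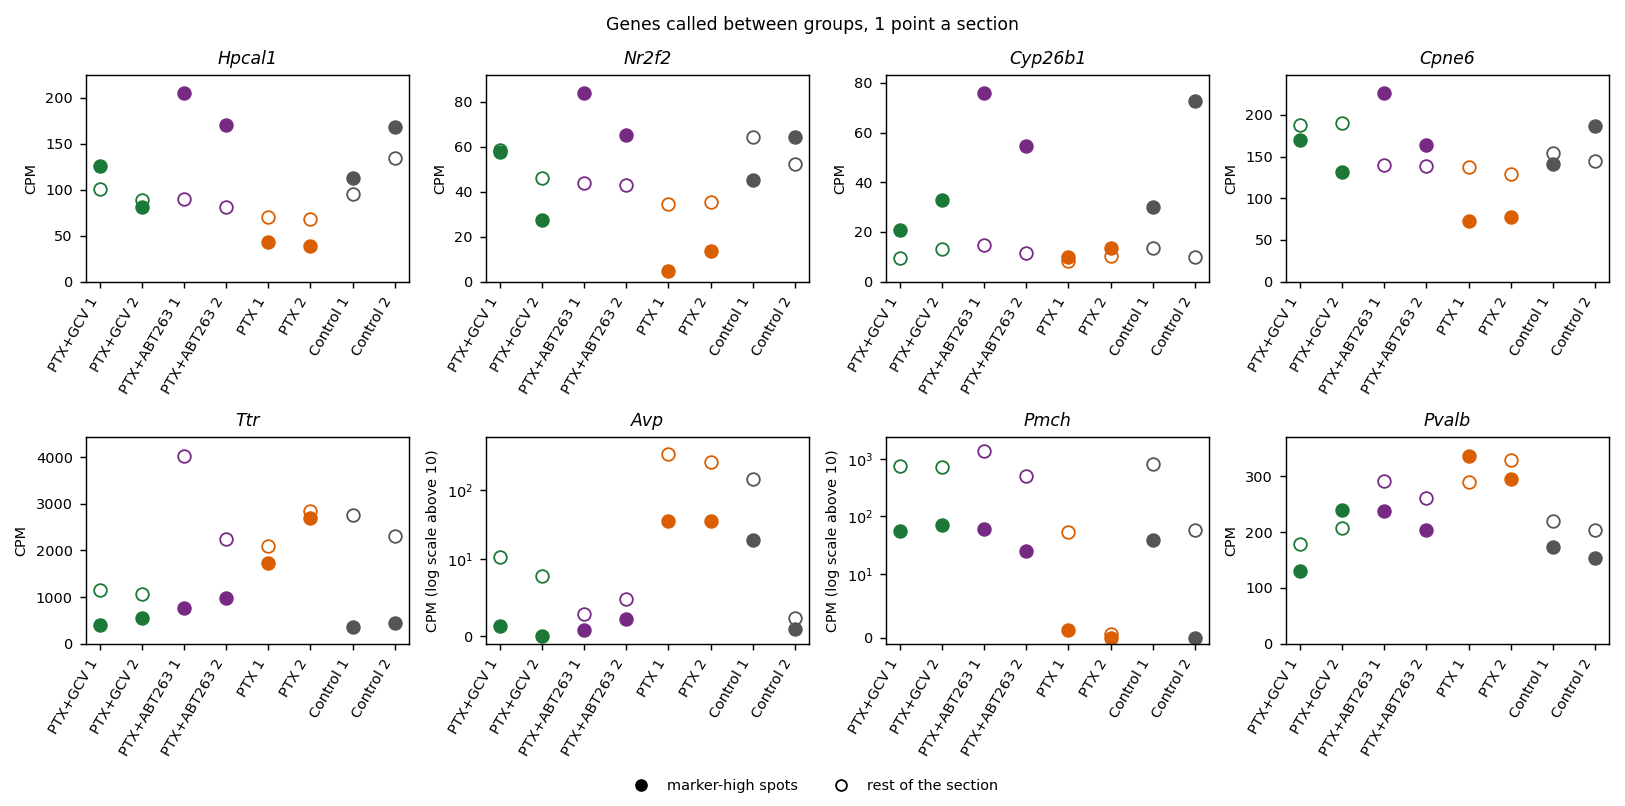
CPM of 8 genes that passed in at least 1 comparison of groups, with 1 filled point per section for the marker-high spots and 1 open point for the rest of the section (Avp and Pmch on a log scale above 10 CPM). Hpcal1, Nr2f2, Cyp26b1 and Cpne6 are lowest in the members of both PTX sections and Ttr is highest there, while Avp and Pmch differ between sections in the rest as well.

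Among layer 5 genes outside the rule, Lypd1 passed between PTX and Control. Of 22 such genes that could be tested, 0 were higher in PTX and 1, Lypd1, was lower, where 0.427% of all genes tested passed. Their median log2 fold change was 0.34, against 0.00 over all genes. The intratelencephalic and general list had a median of 0.47, with 6 of 7 genes above 0, and the near-projecting list one of -1.47, with 0 of 3 above 0. Lypd1 had 49.2 and 55.2 CPM in PTX members, against 78.8 and 362 CPM in Control members, with Control section 2 far above the other 3. Cytoskeletal genes (tubulins, microtubule-associated proteins and stathmins, neurofilaments and axonal motors), which paclitaxel's target belongs to, had 0 of 47 tested genes past the threshold and a median of -0.06, and ion channel and transmitter receptor genes 0 of 47 and a median of 0.06. Over all genes tested 0.427% passed, so a count of 0 in lists of 47 genes is near that share and says little about them. Tubb3, the neuronal beta-tubulin, had 345 and 380 CPM in PTX members, against 317 and 367 CPM in Control members, and the neurofilament Nefl 404 and 426 CPM in PTX members, against 394 and 369 CPM in Control members. Both are shown because they are classic neuronal cytoskeletal genes, and neither passed (adjusted p = 0.922 and 0.838).

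Over all genes tested, 50.4% had a log2 fold change above 0 in PTX against Control. Of 19 oligodendrocyte and myelin genes 18 had a log2 fold change above 0, with a median of 0.28, but only Apod passed. Of 14 immediate early genes, markers of recent neuronal activity, 13 had a log2 fold change below 0, with a median of -0.46, and Junb was lower, at 92.2 and 65.8 CPM in PTX members, against 173 and 119 CPM in Control members (adjusted p = 0.0288). Junb had 79.1 and 59.8 CPM in the rest of the PTX sections, against 127.2 and 83.7 CPM in the rest of the Control sections. Fos, at 51.7 and 53.7 CPM in PTX members, against 99.4 and 79.5 CPM in Control members, did not pass (adjusted p = 0.132). Of the study's 10 senescence genes 5 could be tested and 0 passed, where 0.427% of all genes passed, with a median of -0.03.

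Against PTX, the members of PTX+GCV held less Ttr, Avp and haemoglobin RNA and more Pmch, Nnat, Hpcal1 and Nr2f2. All 3 comparisons share the PTX sections, so they are not independent of one another. In this one 14 of 10528 genes passed (0.133%), 8 higher (0.0760%) and 6 lower (0.0570%), and 630 had an unadjusted p under 0.05. The count was 5 without PTX+GCV section 1 and 25 without PTX+GCV section 2, and 77 genes passed when members were chosen among spots with at least 5000 UMIs, among them the 14. Members under 5000 UMIs made up 52.3% and 59.6% of PTX+GCV members, against 30.4% and 25.7% of PTX members. None of the 13 genes that the naming rule gave passed in every other setting.

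Hpcal1 had 125 and 80.9 CPM in PTX+GCV members, against 43.0 and 38.5 CPM in PTX members (log2 fold change 1.27 ± 0.220 SE, adjusted p = 0.00234). Nr2f2 had 57.5 and 27.3 CPM in PTX+GCV members, against 4.98 and 13.6 CPM in PTX members (log2 fold change 2.15 ± 0.377 SE, adjusted p = 0.00234). PTX+GCV section 1 was the higher of the pair for both, and neither gene passed without it. In the rest of the sections Hpcal1 had 101 and 89.0 CPM in PTX+GCV, against 70.5 and 68.1 CPM in PTX, and Nr2f2 58.7 and 46.1 CPM in PTX+GCV, against 34.5 and 35.5 CPM in PTX. Stum, Cpne6 and Nnat, a small membrane protein of the endoplasmic reticulum, were higher by log2 fold changes of 0.92, 0.95 and 1.48. Nnat had 287 and 122 CPM in PTX+GCV members, against 79.7 and 59.0 CPM in PTX members.

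Hypothalamic peptides differed between the groups inside and outside the members. Pmch had 54.9 and 71.8 CPM in PTX+GCV members, against 1.25 and 0 CPM in PTX members (adjusted p = 7.92e-06), and 765 and 740 CPM in the rest of the PTX+GCV sections, against 53.3 and 0.625 CPM in the rest of the PTX sections. Hcrt, at 23.5 and 25.1 CPM in PTX+GCV members, against 2.49 and 1.51 CPM in PTX members, followed the same pattern, with 292 and 339 CPM in the rest of the PTX+GCV sections, against 13.8 and 1.82 CPM in the rest of the PTX sections. Avp ran the other way, with 1.31 and 0 CPM in PTX+GCV members, against 36.1 and 36.3 CPM in PTX members (adjusted p = 6.92e-05). The plane of section, which decides how much hypothalamus a section holds, and the treatment cannot be told apart here.

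Ttr had 401 and 546 CPM in PTX+GCV members, against 1736 and 2688 CPM in PTX members (log2 fold change -2.28 ± 0.174 SE, adjusted p = 4.16e-11). In the rest of the sections Ttr had 1155 and 1074 CPM in PTX+GCV, against 2093 and 2849 CPM in PTX. All 3 tested haemoglobin genes were lower in PTX+GCV, where 0.133% of all genes tested passed. Hbb-bs, for example, had 3.92 and 5.70 CPM in PTX+GCV members, against 36.1 and 113 CPM in PTX members (adjusted p = 0.000833). Haemoglobin genes were also lower outside the members, at 61.0 and 42.5 CPM in the rest of the PTX+GCV sections, against 338 and 342 CPM in the rest of the PTX sections. Pvalb had 131 and 239 CPM in PTX+GCV members, against 337 and 294 CPM in PTX members (log2 fold change -0.82 ± 0.165 SE, adjusted p = 0.0142), and 179 and 207 CPM in the rest of the PTX+GCV sections, against 290.4 and 329 CPM in the rest of the PTX sections. Of the 22 layer 5 genes, 47 cytoskeletal genes, 47 channel and receptor genes and 5 senescence genes tested, 0 passed in PTX+GCV against PTX, with medians of -0.01, -0.02, 0.01 and 0.02. Over all genes tested 0.133% passed, so counts of 0 in lists of these sizes are near that share.

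Sections labelled PTX+ABT263 were set against PTX last, in members that held more Hpcal1, Nr2f2 and C1ql3. Here 68 genes passed (0.646%), 54 higher (0.513%) and 14 lower (0.133%), with 874 at an unadjusted p under 0.05, and 7 of the 68 lie on chromosome X or Y. Without TMM scaling 51 passed, 32 higher and 19 lower. The count was 38 without PTX section 2 and 41 without section 1 labelled PTX+ABT263, and 163 genes passed when members were limited to those that touch another one, 64 of them among the 68. Ddx3y, Eif2s3y and Kdm5d, all Y-linked, had no UMI in the members labelled PTX+ABT263, against 26.2 and 33.3 CPM of Ddx3y in PTX members, so sex and treatment cannot be told apart in this comparison.

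Hpcal1 had 205 and 170 CPM in members labelled PTX+ABT263, against 43.0 and 38.5 CPM in PTX members (log2 fold change 2.28 ± 0.193 SE, adjusted p = 8.40e-10). Nr2f2 had 83.7 and 65.2 CPM in members labelled PTX+ABT263, against 4.98 and 13.6 CPM in PTX members (log2 fold change 3.13 ± 0.314 SE, adjusted p = 3.69e-08). C1ql3, a secreted organiser of synapses, had 67.0 and 80.2 CPM in members labelled PTX+ABT263, against 14.3 and 12.1 CPM in PTX members (log2 fold change 2.55 ± 0.258 SE, adjusted p = 3.69e-08). All 3 genes separated the 2 groups and passed in every other setting tried. The rest separated as well, with Hpcal1 at 90.5 and 81.8 CPM under the PTX+ABT263 label, against 70.5 and 68.1 CPM in PTX, and Nr2f2 at 43.8 and 42.9 CPM, against 34.5 and 35.5 CPM in PTX. Cyp26b1, Cpne6, Lmo3, a LIM-only transcription cofactor, Nptxr and Syn2 were higher as well, by log2 fold changes of 2.55, 1.46, 1.12, 1.01 and 0.93.

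Much of this RNA lay in the Nr2f2-rich patches. They held 67.9% and 73.8% of the members' C1ql3 UMIs, 61.9% and 59.9% of their Hpcal1 UMIs and 52.6% and 61.6% of their Cyp26b1 UMIs, but 27.5% and 24.4% of all member UMIs in the sections labelled PTX+ABT263. Outside the largest patch the deep members had 110 and 93.6 CPM of Hpcal1 in the sections labelled PTX+ABT263, against 48.5 and 44.7 CPM in PTX, and 31.4 and 29.8 CPM of C1ql3, against 17.0 and 11.7 CPM in PTX. The order of the groups was thus the same outside the patch with smaller differences, which were not tested.

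Of the lower genes, Arc, an immediate early gene of active synapses, had 74.96 and 77.2 CPM in members labelled PTX+ABT263, against 156 and 166 CPM in PTX members (log2 fold change -0.99 ± 0.179 SE, adjusted p = 0.00127), and passed in every other setting. In the rest of the sections Arc had 67.4 and 68.8 CPM under the PTX+ABT263 label, against 122 and 105 CPM in PTX. Nr4a1 was lower too, and the other 12 of 14 immediate early genes did not pass, where 0.646% of all genes tested passed. Rbm3, a cold-induced RNA-binding protein on chromosome X, had 76.6 and 66.0 CPM in members labelled PTX+ABT263, against 149 and 129 CPM in PTX members (log2 fold change -0.88 ± 0.160 SE, adjusted p = 0.00138), and was as low in the rest, at 72.5 and 72.5 CPM under the PTX+ABT263 label, against 137 and 121 CPM in PTX. Bcl11a, a transcription factor of cortical projection neurons, and Slc24a2 were lower by log2 fold changes of -0.84 and -0.79, and Ttr by -1.23. Of 18 other settings, Bcl11a lost its call in 5, Ttr in 3 and Slc24a2 in 1. Rbm3 lost its call in 3 of 17.

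Bc1, a short noncoding RNA of dendrites, had 32469 and 50188 CPM in members labelled PTX+ABT263, against 18822 and 10995 CPM in PTX members (log2 fold change 1.57 ± 0.221 SE, adjusted p = 2.41e-05), and 36405 and 51487 CPM in the rest under that label, against 25100 and 14247 CPM in PTX. A single RNA thus took a share of the members' UMIs that differed between sections. For the lists that follow, 0.646% of all genes tested passed. Of the 22 layer 5 genes 1 passed, Lypd1, at 216 and 148 CPM in members labelled PTX+ABT263, against 49.2 and 55.2 CPM in PTX members. The list median was -0.23. None of 47 cytoskeletal genes passed (median 0.02). Gabra2, a GABA-A receptor subunit, and Scn3b, a sodium channel subunit, were the 2 of 47 channel and receptor genes that passed, both higher, with Scn3b at 66.2 and 57.7 CPM in members labelled PTX+ABT263, against 35.5 and 26.5 CPM in PTX members. The 5 senescence genes tested had 0 calls, near the share of 0.646% over all genes, and a median of -0.05.

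To ask whether a group difference in the members exceeded that in the rest of the same sections, the within-section difference of log2 CPM was tested with limma. None of 10528 genes passed in any of the 3 comparisons (0% called), while 649 had an unadjusted p under 0.05 for PTX against Control, 483 for PTX+GCV against PTX and 527 for PTX+ABT263 against PTX. The smallest p-values belonged to the sections labelled PTX+ABT263. Cpne2, a copine, differed by 1.89 ± 0.171 SE more in members than in the rest, Hpcal1 by 1.85 ± 0.187 SE and Rasl11a, a small GTPase, by 2.42 ± 0.252 SE (log2, adjusted p = 0.148 for each), and Hpcal1 passed when members were chosen among spots with at least 5000 UMIs. For PTX against Control, Ttr differed by 2.54 more in members than in the rest, and Eif4e3, a cap-binding protein, by -1.30, while for PTX+GCV against PTX Pcbd1 and Dap differed by 1.31 and 1.44, with adjusted p-values of 0.794 and 0.999 for the 2 comparisons. Without Control section 2, 52 genes passed for PTX against Control.

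Cdkn2a, the gene of p16 whose promoter the transgene uses, was almost absent from the members. It had a UMI in 3 of 853 members, or 0.352% (exact 95% interval 0.0726 to 1.02%), against 51 of 20475 other spots, or 0.249% (0.186 to 0.327%). The 3 spots lay in PTX+GCV section 2, section 1 labelled PTX+ABT263 and PTX section 2, with 1 each. In the other 5 sections a count of 0 allows a share of up to 2.70 to 3.19% of member spots with a UMI when taken as 3 counts, and the exact 95% intervals reach 3.27 to 3.85%, so a difference between groups was not detectable at this depth. These intervals cover counting error only.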

How the data were processed

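Spatial gene expression was read on 8 coronal brain sections (Visium), 2 per group, all given 1 batch by the labels. The authors deposited raw UMI counts per spot and gene. File headers name Space Ranger 1.2.1 as the counter, and the submitters' processing notes name the build mm10 and Seurat 4.0. All 32285 features and every count column mapped to a sample, and 768 spots under tissue were left out by the limits on genes and mitochondrial UMIs.

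Counts of the members were summed per section (533228 to 1606058 UMIs) and tested with edgeR 4.0.16 (TMM, quasi-likelihood F-test, 4 groups fitted together, Benjamini-Hochberg threshold 0.05) in R 4.3.3, after edgeR's filter on low counts and without the 3 genes of the rule. Within-section differences of log2 CPM (prior count 2) between members and the rest were tested with limma 3.58.1. Section medians of edge distance were compared by exact sign-flip permutation in Python 3.11.15. The scripts were tested on simulated data. Both sections of a group enter as replicates, and with 2 a group the precision rests on their number as much as on depth.

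Named genes are the 10 each way with the smallest adjusted p among those that passed and did not overlap between groups (5 by smallest p where under 5 passed, 3 each way for the difference from the rest), the 20 highest and 5 lowest over the rest at 50 CPM or more, all genes of the layer 5 lists and up to 4 of any other list. Unnamed gene models were left out. Some genes that the rule gave are not reported here. Members and lists were chosen with earlier results of these data known. Alternatives were DESeq2 1.42.0, no TMM, no filter on low counts, the highest 2% or 8% of spots, touching members, a minimum of 5000 UMIs (for the differences from the rest and the positions chosen after seeing the data), the replicate number as a block, fits of 2 groups alone or without the sections labelled PTX+ABT263, and each section left out in turn. Gene positions are those of GENCODE on GRCm38, which matched 32235 features.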

Additional observations from a re-analysis of the deposited data

Results flagged for a closer look

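Of 75 measures over 8 sections, 6 had 1 section whose gap to the next exceeded Dixon's critical value, a test that flags about 1 in 20 groups by chance. Parm1, a layer 5 gene, stood over the rest of the section by a log2 ratio of only 0.22 in Control section 2, where the next lowest section had 0.77. Haemoglobin genes had 219 CPM in the members of PTX section 2, with 77.8 CPM in the next section. Interferon and MHC class I genes had 449.7 CPM in PTX section 2, with 352 CPM in the next. Axonal motor genes had 5487 CPM in Control section 1, with 4717 CPM in the next. In PTX+GCV section 2, pericyte and smooth muscle genes had 237 CPM and secretory phenotype genes 593 CPM, with 179.9 and 529 CPM in the next sections. No cause was tested.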

How the results depend on the processing

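Counts of genes passing are given for PTX against Control, then PTX+GCV against PTX, then PTX+ABT263 against PTX, and stood at 45, 14 and 68. DESeq2 called 14, 3 and 17, no filter on low counts 74, 28 and 108, and the highest 2% of spots 26, 1 and 30. The highest 8% of spots gave 60, 9 and 29, touching members 31, 6 and 163, and a minimum of 5000 UMIs 123, 77 and 91, so the order of the counts depended on the choice of members. Without the sections labelled PTX+ABT263, 48 genes passed for PTX against Control and 16 for PTX+GCV. Leaving out 1 section gave 23 to 73, 5 to 25 and 38 to 80. For the difference from the rest, 0 genes passed, against 35 and 40 with no filter (PTX against Control and PTX+GCV), 1 with the highest 8% and 4 with 5000 UMIs (both PTX+ABT263), and leaving out 1 section gave 0 to 52 for PTX against Control, 0 to 2 for PTX+GCV and 0 for PTX+ABT263. The cause was not tested. The highest 8% of spots left 4 genes with a median log2 ratio of 1 or more.

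The distance from layer 6 spots turned positive at 0.00236 mm (highest 8%), 0.0169 mm (touching) and 0.0237 mm (5000 UMIs), with exact permutation p-values of 0.922, 0.734 and 0.523 over 8 sections, and Opalin turned to -0.12 (5000 UMIs). Deviations of same-numbered sections correlated at -0.0588 to 0.0480 across genes, so these values showed no pairing by section number. Whether same-numbered sections shared a processing step was not tested. With the replicate number as a block, 35, 13 and 59 genes passed, and 0 in each comparison with the rest. Among genes named in the 3 comparisons of members, none changed direction in any setting, and 5 of 19, 0 of 13 and 11 of 20 passed in all of them. Shallow members, with a median of 1 to 2.5 rule UMIs, rest on single molecules, which limits their choice.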

Other observations

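Other lists were also higher in members than in the rest of their sections. Immediate early genes summed to a median of 1241 CPM in members and 943 CPM in the rest, heat shock and chaperone genes to 5942 and 5484 CPM, and BCL-2 family genes, which ABT263's targets belong to, to 467 and 444 CPM, each higher in 8 of 8 sections. Upper layer and layer 6 spots had medians of 1776 and 1315 CPM of immediate early genes, and layer 6 spots 5891 CPM of heat shock and chaperone and 501 CPM of BCL-2 family genes, so these levels were not particular to the members. Among cytoskeletal lists, tubulin and microtubule-associated protein genes were higher than the rest in 8 of 8 sections, with tubulin genes at 5413 CPM in members and 4902 CPM in the rest and microtubule-associated protein and stathmin genes at 6555 and 5581 CPM. Layer 6 spots had 5490 and 6618 CPM of these 2 lists, and members were above them in 4 and 3 of 8 sections. Neurofilament genes, at 866 and 889 CPM, were higher in members in 4 of 8 sections. Astrocyte and reactive glial genes, at 4376 and 1918 CPM in members, against 4598 and 2204 CPM in the rest, were lower in 8 of 8 sections. These are descriptions, since the members were chosen by expression in the same spots.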
